A study of Mus musculus with 12 samples.

Results

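The genes described here are 40 mouse genes whose products build ribosomes: nucleolar proteins, subunits of RNA polymerase I, regulators of ribosomal RNA synthesis, core proteins of the small nucleolar ribonucleoprotein particles, and assembly factors of the small and the large ribosomal subunit. They were chosen by gene symbol from what is known of their products, but with earlier results of these data known. Counts over the list are therefore not a blind test. The probe sets of those symbols were taken from the annotation of the array platform, with the brightest probe set standing for a gene. Of the 40 genes, 39 had a probe set of their own and were measured, and those 39 also passed the filter on dim genes. The exception was Mrto4, whose probe set is shared with pseudogene symbols and which is not analysed here. The whole table holds 11624 tested genes, and every adjusted p below was computed over all of them.

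The samples were left ventricles of Balb/c mice aged 6 to 8 weeks, each hybridised to 1 of 12 single-colour Affymetrix arrays. Transverse aortic constriction (TAC), a ligature that narrows the aorta and loads the ventricle with pressure, was sampled at 1 day, 1 week and 1 month, each with a sham-operated control at that time. Myocardial infarction (MI), made by ligation of the left coronary artery, was sampled at 1 week and 1 month, each with its own sham. The pressor hormone angiotensin II (Ang II) was given for 1 week at 2 mg/kg/day, and its control, per the series text, had saline from a minipump. Each group is thus 1 array, and the arrays form 6 procedure and control pairs. The sources used here do not say whether an array holds 1 animal or a pool, so a p-value here is not known to reflect spread between animals. It rests on how ratios differ between pairs. That spread may be partly technical and also holds real differences between procedures or times. The labels were followed where the series text departs from them: it places the 1 day harvest under MI rather than TAC, and describes 30 min of coronary occlusion with reperfusion rather than a ligation alone.

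Ribosomes are assembled mainly in the nucleolus. RNA polymerase I copies the ribosomal RNA genes into a long precursor, box C/D and box H/ACA particles guide its chemical modification, and a large set of assembly factors folds, cuts and exports the subunits. The transcription factor Myc is a well-known activator of many of these genes, and the growth of heart muscle cells under pressure load is known to need more ribosomes. Whether the genes followed Myc at TAC 1 day, and for how long, was the question put to these arrays.

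Signals (the brightness of a probe set, scaled so that all arrays share 1 trimmed mean) are given below on a linear scale, and ratios are log2 of procedure over control, so that a ratio of 1 is 2-fold. Scaling factors lay between 0.872 and 1.09. RNA integrity, read from the 3' to 5' ratio of the actin probe sets, ranged from 1.18 to 1.33 over the 12 arrays and was 1.24 for TAC 1 day. TAC 1 day is the one array deposited with 6 decimals, where the others have 1, and the part of that in the TAC 1 day results was not tested. The cardiomyocyte markers were bright on every array, with summed signals of 92710 to 118331 over 10 genes. The probe sets used for Tsr1, Nhp2, Fbl, Nop56, Gar1 and Polr1c carry the platform's suffix for sets that can match more than 1 transcript.

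Ribosome biogenesis genes were higher in the ventricle 1 day after TAC. The median log2 ratio of the 39 genes was 0.863, a median signal ratio of 1.82, where the median over all genes tested was -0.074. The ratio was above 0 for 38 of the 39, where it was for 44.9% of all genes, and Polr1c was the exception at -0.03. The other probe set of Polr1c, with a mean signal of 189 against 196, had a ratio of 0.271. At least 2-fold higher were 14 of the 39, against a background of 5.7% of all genes, and 0 were 2-fold lower, where 6.4% of all genes were. A gene counted as 2-fold here had a ratio of at least 1 in size, a brighter signal above 25.9 and a procedure value outside the range of the 6 controls. Single pairs hold 1 array a side, and these counts have no replicate check. By the same limits at most 1 of the 39 differed in any comparison of controls of 1 time, where 2.1% to 3.05% of all genes did.

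The control arrays give the only measure of how far the list moves between ventricles without TAC, MI or Ang II. They join controls of different series, at 1 week or 1 month. Day 1 has a single control array, so the spread at that time was not measured. Between the 4 pairs of controls of the same time, the median log2 difference of the 39 genes was -0.094, -0.06, 0.053 and -0.055, so the TAC 1 day median lay outside these. The sham array of day 1 differed from the mean of the other 5 controls by a median of 0.08. On the TAC 1 day array 35 of the 39 genes lay above all 6 controls, where 24.6% of all genes did, and 0 lay below them, where 34% did. For 35 genes that array also held the highest signal of all 12, where 16.3% of all genes had their highest signal there. The 4 exceptions were Ddx18, highest at TAC 1 week, Rrs1, highest in the Ang II control, Rrp1b, highest in the MI sham of 1 month, and Polr1c, highest in the MI sham of 1 week. In whole ventricle, more RNA per cell and more cells of a type rich in these transcripts cannot be told apart.

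**Figure D1:**
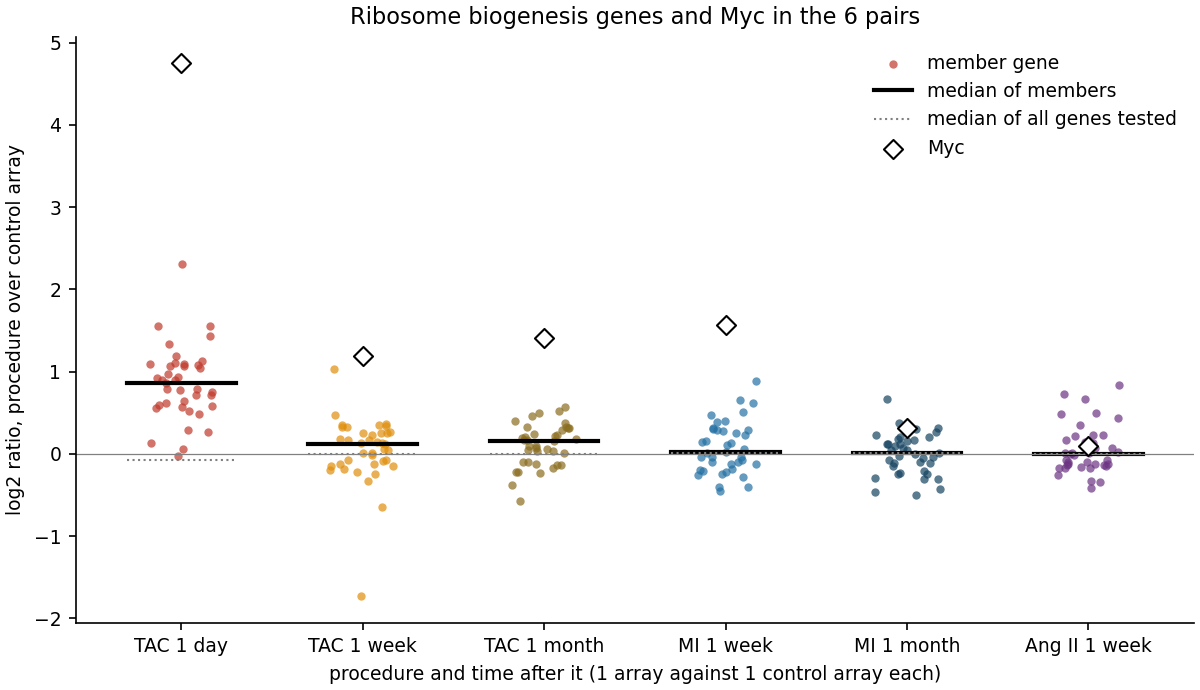
Each point is the log2 ratio of procedure over control for 1 of the 39 ribosome biogenesis genes in 1 of the 6 pairs, with the median of the genes as a solid line, the median of all genes tested as a dotted line and Myc as a diamond. The genes' median is 0.863 at TAC 1 day and between 0.001 and 0.153 in the other 5 pairs, while Myc is at 4.75 at TAC 1 day.

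Myc itself, the transcription factor, read 250 on the TAC 1 day array and 9.29 on its sham, which is a log2 ratio of 4.75. The remaining pairs read 48.4 against 21.3 at TAC 1 week, 37.5 against 14.1 at TAC 1 month, 84.1 against 28.4 at MI 1 week, 21.5 against 17.3 at MI 1 month and 11.6 against 10.9 with Ang II. Its procedure array was the brighter of the pair in all 6 pairs, and the 6 controls ran from 9.29 to 28.4, with the day 1 sham the dimmest of them, and the TAC 1 day array stood clear of every other array. In the limma fit with a separate TAC 1 day effect, Myc rose by 4.75 ± 0.66 (SE, adjusted p = 0.00181), and that effect exceeded the mean of the other 5 pairs by 3.84 ± 0.72 (adjusted p = 0.0171). The size of these values rests on a dim sham, whose 9.29 lies under the filter signal of 18.1: raising the floor to the 40th percentile made the ratio 3.94 and the difference from the other pairs 3.09, and against the mean of all 6 controls the ratio was 3.99. Against its own sham, Myc had a ratio of 1.56 at MI 1 week, where the median of the 39 genes was 0.022, of 1.41 at TAC 1 month, where it was 0.153, and of 1.19 at TAC 1 week, where it was 0.119. Against the mean of all controls of the same time those medians were 0.104, 0.028 and -0.012, so their order depends on the control. Mycn, a relative of Myc, fell at TAC 1 day, with a signal of 17.9 against 80.3 in the sham and a log2 change of -2.16 ± 0.28 (adjusted p = 0.0013 in limma). Mxi1, an antagonist of Myc, fell as well, from 456 to 228 (adjusted p = 0.00973).

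The TAC 1 day effect of single genes was tested in that limma fit, in which the lone TAC 1 day pair is assumed to vary like the other 5 pairs. With Benjamini-Hochberg adjustment over all genes, 24 of the 39 rose and 0 fell, where 6.19% of all genes rose and 10.2% fell (16.4% in either direction). Without adjustment, 29 were under 0.05, where 31.7% of all genes were. Leaving out each of the other pairs in turn left between 19 and 24 higher. With the signals as deposited, without scaling, 14 were called, and without moderation of the variances 6.

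**Figure D2:**
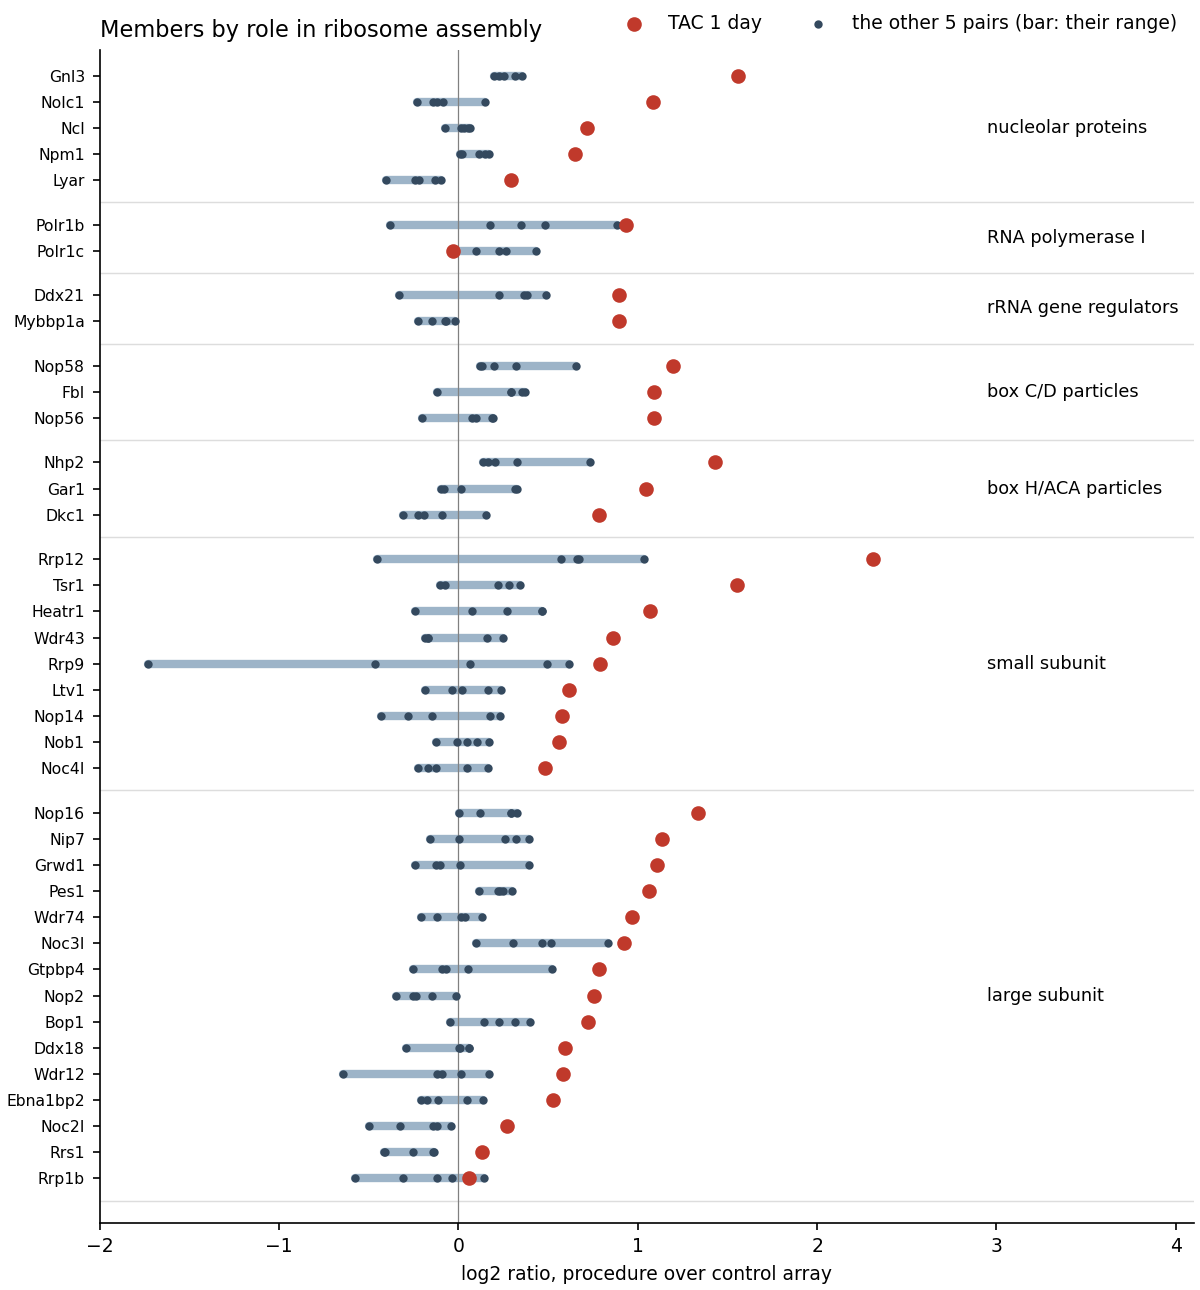
Each row is 1 of the 39 genes, grouped by role, with its log2 ratio at TAC 1 day as a large point and the ratios of the other 5 pairs as small points over a bar that spans their range. The TAC 1 day point lies right of that range for 37 genes (20.5% of all genes have their highest ratio there), the exceptions being Polr1c and Rrp1b.

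Among the 5 nucleolar proteins, 4 rose at TAC 1 day, with a median ratio of 0.718 over all 5. Gnl3 (nucleostemin), a nucleolar GTP-binding protein of proliferating cells, read 719 on the TAC 1 day array and 244 on its sham. Its remaining pairs read 217 against 186 at TAC 1 week, 281 against 225 at TAC 1 month, 268 against 224 at MI 1 week, 235 against 205 at MI 1 month and 234 against 183 with Ang II. All 6 procedure arrays were brighter than their controls, yet only the TAC 1 day array left the band that the other 11 arrays occupied, and the gene rose by 1.56 ± 0.17 (SE, limma adjusted p = 0.000562). Nolc1, a chaperone of small nucleolar particles, read 238 on the TAC 1 day array and 112 on its sham, with 92.7 to 134 on the other 10 arrays, and rose by 1.08 ± 0.22. Ncl (nucleolin), which binds the ribosomal RNA precursor, read 2038 on the TAC 1 day array and 1239 on its sham. Its other 10 arrays lay between 1242 and 1753, with ratios between -0.07 and 0.07 in the other 5 pairs, and it rose by 0.72 ± 0.13 (limma adjusted p = 0.00527). Npm1 (nucleophosmin), a nucleolar histone and ribosome chaperone, rose by 0.65 ± 0.13 (adjusted p = 0.00973). Lyar, a nucleolar zinc-finger protein, read 354 against 289 in the sham and did not pass (adjusted p = 0.277). The TAC 1 day array was its brightest all the same, and in the other 5 pairs the procedure array was the dimmer one.

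Of the 2 subunits of RNA polymerase I, 0 passed, with 0 also at an unadjusted p under 0.05. Polr1b, the second largest subunit, read 80.8 on the TAC 1 day array and 42.2 on its sham, a ratio of 0.94, and reached nearly the same ratio, 0.88, at MI 1 week. Its 6 controls ran from 25 to 61.4, and its adjusted p was 0.2 in limma. Polr1c, a subunit shared with RNA polymerase III, read 224 on the TAC 1 day array and 229 on its sham, and its controls overlapped the procedure arrays throughout. Both regulators of ribosomal RNA synthesis had ratios near 0.9. Mybbp1a, a nucleolar Myb-binding protein, read 961 on the TAC 1 day array and 517 on its sham. Its other 10 arrays held 382 to 484, and it rose by 0.90 ± 0.15 (limma adjusted p = 0.00403), although in the other 5 pairs each procedure array was a little below its control. Ddx21, an RNA helicase, read 242 on the TAC 1 day array and 130 on its sham, but its controls varied from 87.2 to 142 and it missed the threshold (adjusted p = 0.0594).

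All 3 box C/D proteins rose at TAC 1 day. These particles methylate ribosomal RNA, with Fbl (fibrillarin) as the methyltransferase and Nop56 and Nop58 as its scaffold. Fbl read 698 on the TAC 1 day array and 327 on its sham, and 295 to 505 on the other 10 arrays. Nop56 read 342 on the TAC 1 day array and 161 on its sham, and 123 to 173 elsewhere. The TAC 1 day array was the brightest for both, with rises of 1.09 ± 0.19 and 1.09 ± 0.21 (limma adjusted p = 0.00535 and 0.00756). Nop58 read 167 on the TAC 1 day array and 73.1 on its sham and rose by 1.20 ± 0.29 (adjusted p = 0.0214), and its ratio at MI 1 week, 0.65, was the highest that a box C/D protein had outside TAC 1 day.

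All 3 box H/ACA proteins, whose particles turn uridine into pseudouridine, rose as well. Nhp2, an RNA-binding core protein, read 627 on the TAC 1 day array and 233 on its sham. Its remaining pairs read 261 against 232 at TAC 1 week, 316 against 251 at TAC 1 month, 303 against 276 at MI 1 week, 296 against 257 at MI 1 month and 367 against 220 with Ang II. The Ang II array was thus its second brightest, and the rise at TAC 1 day was 1.43 ± 0.22 (limma adjusted p = 0.00273). Gar1, another core protein, read 346 on the TAC 1 day array and 168 on its sham and rose by 1.04 ± 0.21. Dkc1 (dyskerin), the pseudouridine synthase itself, read 177 on the TAC 1 day array and 103 on its sham and rose by 0.78 ± 0.23 (adjusted p = 0.0479), close to the threshold.

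Of the 9 factors of the small subunit, 5 rose, with a median ratio of 0.788. Rrp12, a HEAT-repeat protein needed for subunit export, had the highest ratio of the 39 genes and read 308 on the TAC 1 day array and 61.9 on its sham. Its remaining pairs read 93.9 against 45.8 at TAC 1 week, 112 against 75 at TAC 1 month, 60.2 against 82.5 at MI 1 week, 81.1 against 51.2 at MI 1 month and 75.7 against 47.6 with Ang II. Only at MI 1 week was the procedure array the dimmer one, and the TAC 1 day array was far above every other array. The rise was 2.31 ± 0.43 (limma adjusted p = 0.00707). Tsr1, a GTPase-like protein of late small-subunit particles, read 474 on the TAC 1 day array and 161 on its sham. Its remaining pairs read 200 against 158 at TAC 1 week, 209 against 179 at TAC 1 month, 208 against 171 at MI 1 week, 198 against 209 at MI 1 month and 179 against 192 with Ang II. These other arrays all lay between 158 and 209, and the rise was 1.55 ± 0.21 (adjusted p = 0.00174). Heatr1, a component of the early small-subunit processome, rose by 1.07 ± 0.27, Wdr43, another one, by 0.86 ± 0.22, and Ltv1, an export factor, by 0.62 ± 0.18 (limma adjusted p = 0.0243, 0.0258 and 0.0439). The 4 that did not pass were Rrp9 (0.79), Nop14 (0.58), Nob1 (0.56), the endonuclease that trims the small-subunit RNA, and Noc4l (0.48). Rrp9, a protein bound to a small nucleolar RNA of the processome, had the largest standard error of the 39, 0.68, with signals of 25.8 to 85.3 over the controls.

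Of the 15 factors of the large subunit, 8 rose, with a median ratio of 0.755. Nop16 read 340 on the TAC 1 day array and 135 on its sham and 100 to 145 on the other 10 arrays. Nip7, which helps process the precursor RNA, read 364 on the TAC 1 day array and 166 on its sham, with 139 to 229 elsewhere. Grwd1, a chaperone of a ribosomal protein, read 335 on the TAC 1 day array and 155 on its sham, with 117 to 163 elsewhere. The 3 genes rose by 1.33 ± 0.21, 1.13 ± 0.23 and 1.11 ± 0.24 in that order (limma adjusted p = 0.00354, 0.00982 and 0.014). Pes1 and Bop1, which work together in one complex with Wdr12, rose by 1.06 ± 0.20 and 0.72 ± 0.21, while Wdr12 had a ratio of 0.58 and did not pass (limma adjusted p = 0.177). Wdr74 rose by 0.97 ± 0.20, Gtpbp4, a nucleolar GTPase, by 0.78 ± 0.24, and Nop2, an RNA methyltransferase, by 0.76 ± 0.21. The 7 that did not pass ran from Noc3l at 0.92 and Ddx18 at 0.59 through Wdr12, Ebna1bp2 at 0.53, Noc2l at 0.27 and Rrs1 at 0.13 to Rrp1b at 0.06.

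**Figure D3:**
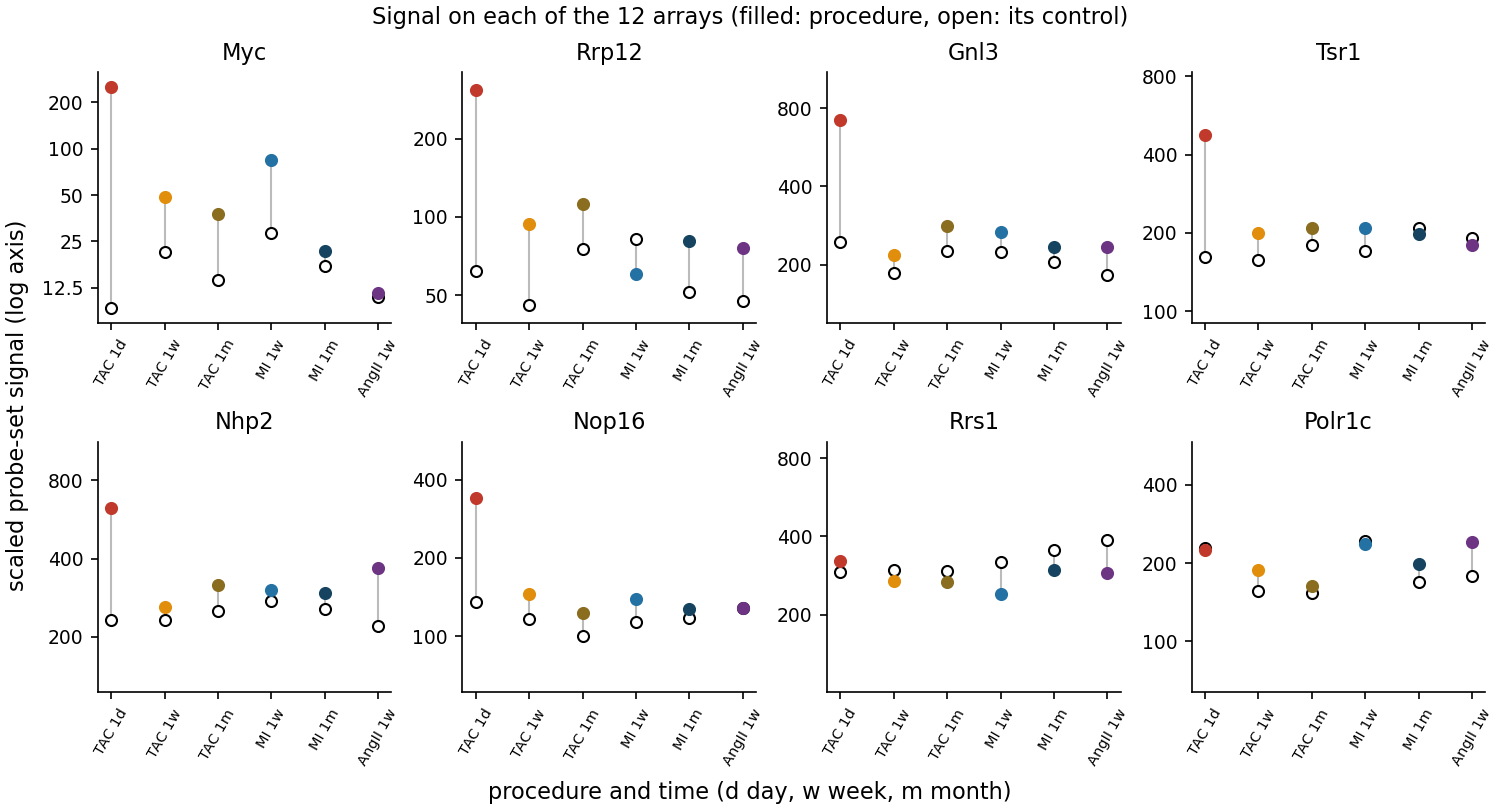
Scaled probe-set signal on a log axis for Myc and 7 ribosome biogenesis genes on all 12 arrays, with the procedure array of each pair filled and its control open. The TAC 1 day array is the highest of the 12 in every panel but those of Rrs1 and Polr1c, where it reads 321 and 224.

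A few genes had ratios near 0 at TAC 1 day. Rrs1, a factor of early large-subunit particles, read 321 on the TAC 1 day array and 293 on its sham, and its remaining pairs read 269 against 297 at TAC 1 week, 268 against 294 at TAC 1 month, 241 against 320 at MI 1 week, 298 against 355 at MI 1 month and 290 against 386 with Ang II. Its procedure arrays were the dimmer ones in those 5 pairs, and with signals as deposited its TAC 1 day ratio turned to -0.02. Noc2l, the mouse relative of a yeast factor of large-subunit transport, read 129 on the TAC 1 day array and 107 on its sham, and with its second brightest probe set the ratio was -0.13. Rrp1b read 71.9 on the TAC 1 day array and 69.1 on its sham by its brightest probe set, with 67.3 to 85.1 over the controls. Its probe sets disagreed, since the 2 dimmer ones had ratios of 2.56 and 1.62. The reverse held for Nip7, whose dimmer probe set had a ratio of -1.06 where the brightest one had 1.13. Of the 39 genes, 27 had several probe sets. Of the 41 others, 36 were above the filter signal of 18.1, and 29 of those 36 were higher at TAC 1 day, with a median ratio of 0.599.

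The promoters of the genes give a feature that was not used to choose them. Myc and its partner Max bind the E-box CACGTG, which reads the same on both strands. In RefSeq promoter windows (build GRCm38.p6, 250 bases before to 50 after a start site), 34 of the 39 genes had an entry, and 7 of these 34, or 20.6%, held CACGTG. Among all 27025 genes of that promoter table, 2187, or 8.09%, held it. That background includes genes too dim to be tested here, and the share over tested genes alone was not computed. The 7 were Tsr1, Grwd1, Pes1, Mybbp1a, Wdr43, Nop2 and Ltv1. The 4 of these with the highest TAC 1 day ratio are shown, 5′ to 3′ on the strand of the gene, with the E-box in capitals, to show where it lies beside the start site.
Tsr1 (chr11:74897830-74898129, + strand): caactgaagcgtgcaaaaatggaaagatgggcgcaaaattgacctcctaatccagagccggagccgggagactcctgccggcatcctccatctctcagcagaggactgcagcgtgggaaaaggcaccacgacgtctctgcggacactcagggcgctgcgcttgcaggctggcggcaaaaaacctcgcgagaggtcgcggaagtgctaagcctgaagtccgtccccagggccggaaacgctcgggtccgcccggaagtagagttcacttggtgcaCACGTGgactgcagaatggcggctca
Grwd1 (chr7:45830740-45831039, - strand): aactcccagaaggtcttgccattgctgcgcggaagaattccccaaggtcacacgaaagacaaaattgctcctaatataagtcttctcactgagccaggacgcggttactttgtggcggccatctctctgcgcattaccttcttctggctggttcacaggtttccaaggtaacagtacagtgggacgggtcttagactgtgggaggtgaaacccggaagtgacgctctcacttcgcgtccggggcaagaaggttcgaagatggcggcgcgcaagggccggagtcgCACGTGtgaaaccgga
Pes1 (chr11:3963725-3964024, + strand): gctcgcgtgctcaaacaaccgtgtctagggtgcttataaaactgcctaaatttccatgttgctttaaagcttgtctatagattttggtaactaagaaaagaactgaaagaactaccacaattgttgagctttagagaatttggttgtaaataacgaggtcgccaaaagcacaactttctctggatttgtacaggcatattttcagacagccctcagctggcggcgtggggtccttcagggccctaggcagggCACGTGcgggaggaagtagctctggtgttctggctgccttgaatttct
Mybbp1a (chr11:72441077-72441376, + strand): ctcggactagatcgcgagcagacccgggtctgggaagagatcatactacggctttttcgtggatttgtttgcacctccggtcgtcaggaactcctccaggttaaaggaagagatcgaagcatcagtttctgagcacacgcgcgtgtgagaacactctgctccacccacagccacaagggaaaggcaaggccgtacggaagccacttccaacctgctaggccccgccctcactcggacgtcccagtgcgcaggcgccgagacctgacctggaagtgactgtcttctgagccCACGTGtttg
In all 4 the E-box lies just downstream of the annotated start, its first base being 24 bases past the start of Tsr1, 34 of Grwd1, 2 of Pes1 and 40 of Mybbp1a. In Nop2 it lies 60 bases before the start. The median TAC 1 day ratio was 0.895 over the 7 genes with the motif and 0.788 over the 27 without it, and the range of the latter, -0.03 to 1.56, covered that of the former, 0.619 to 1.55. A match of letters is not a binding site, and its absence says only that these letters are not in the window.

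Ratios were smaller at the later times of TAC. The median ratio was 0.119 at 1 week and 0.153 at 1 month, against medians over all genes of -0.003 at both times. The ratio was lower at both later times than at 1 day for 38 of the 39 genes, Polr1c being the exception. How many of all genes did the same was not counted. The other probe set of Polr1c had ratios of 0.271 at 1 day, 0.124 at 1 week and 0.127 at 1 month. By the limits of the 2-fold count set at 1.5-fold, 28 genes were higher at TAC 1 day, where 11.5% of all genes were, and Ddx18 (ratio 0.59) was left out because its array lay within the range of the controls. Of these 28, 1 was so again at 1 week, namely Rrp12, and 0 at 1 month, and the matching share of all genes was not counted. Of all 39 genes, 1 was 1.5-fold higher at 1 week and 0 at 1 month, where 6.14% and 5.42% of all genes were. On the TAC 1 week array 7 genes lay above and 6 below all 6 controls, where 21.8% and 21.2% of all genes did, and on the TAC 1 month array 10 lay above and 5 below, where 19.3% and 18.8% did. At 1 week 24 of 39 ratios were above 0 and at 1 month 28, where 49.7% and 49.6% of all genes were. The small later medians depended on the control: against the mean of all controls of the same time they were -0.012 at 1 week and 0.028 at 1 month.

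Single genes spread more at 1 week than their median shows. Rrp12 was the only gene 2-fold higher (ratio 1.04; 2.18% of all genes were 2-fold higher) and Rrp9 the only one 2-fold lower, with 25.7 against 85.3 in its sham and a ratio of -1.73 (0.826% of all genes). The Rrp9 sham of 1 week was the brightest of its 6 controls and the sham of 1 month read 25.8, so the low value lay level with another control. At 1 month the ratios ran from -0.58 for Rrp1b to 0.57 for Rrp12, and 0 genes were 2-fold either way (1.91% of all genes were 2-fold higher and 1.26% lower).

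The difference between TAC 1 day and the mean of the other 5 pairs was tested for each gene in the same limma fit. It passed for 13 of the 39 genes, in each of them with the higher effect at TAC 1 day, where 2.08% of all genes passed in that direction, 3.8% in the other and 5.88% in either. Largest of the 13 were Tsr1 with 1.42 ± 0.23 (SE, adjusted p = 0.0103) and Gnl3 with 1.29 ± 0.18 (adjusted p = 0.00507), a small-subunit factor and a nucleolar GTP-binding protein. Nolc1, Nop16, Grwd1, Nhp2 and Nop56 followed with differences of 1.17, 1.13, 1.12, 1.12 and 1.02. Mybbp1a differed by 1.00 ± 0.16 (adjusted p = 0.00954) and Ncl by 0.70 ± 0.14 (adjusted p = 0.0205), the smallest of the 13. Wdr74, Nop2, Gar1 and Fbl had differences of 1.00, 0.95, 0.95 and 0.85. Rrp12, with the largest difference, 1.81 ± 0.48, did not pass (adjusted p = 0.0544), and Npm1, Pes1 and Nip7 missed narrowly as well (0.0507, 0.0514 and 0.0515). How many passed hung on single pairs: 3 without the MI 1 month pair, 5 without TAC 1 week, 10 without TAC 1 month, 10 without Ang II and 17 without MI 1 week. At an unadjusted p under 0.05, 30 of the 39 passed, where 22.1% of all genes did. With signals as deposited 2 of the 39 passed after adjustment, and 1 with no moderation or with no intensity trend. Of all 11625 genes tested with signals as deposited, 1282 passed in either direction, a larger share than that of the 39. With scaled signals 684 of all genes did.

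In the MI and Ang II pairs the list median stayed near that of all genes. The median ratio was 0.022 at MI 1 week, 0.014 at MI 1 month and 0.001 with Ang II, where all genes had 0.009, 0.009 and -0.007. At MI 1 week it was 0.104 against the mean of all controls of the same time and 0.178 with signals as deposited, where the median of all genes was 0.165. Above 0 were 21, 21 and 20 of the 39 ratios, where 50.8%, 51% and 48.6% of all genes were. At MI 1 week 12 genes lay above and 5 below all 6 controls (25% and 25.6% of all genes), at MI 1 month 7 and 7 (19.6% and 19.5%), and with Ang II 5 and 6 (13.9% and 11.9%). In these 3 pairs 0 genes were 2-fold higher or lower, against 6.01%, 2.89% and 0.946% of all genes higher and 1.3%, 0.619% and 0.774% lower. At MI 1 week the ratios ran from -0.46 for Rrp12 to 0.88 for Polr1b, at MI 1 month from -0.50 for Noc2l to 0.66 for Rrp12, and with Ang II from -0.42 for Rrs1 to 0.84 for Noc3l. In the limma fit by procedure, 0 of the 39 genes passed for TAC over its 3 times, where 2.34% of all genes did, and 13 were at an unadjusted p under 0.05, where 21.6% of all genes were. For MI 0 passed (0.981% of all genes), for Ang II 0 (0%) and for the TAC minus MI difference 0 (0%), each with 0 at an unadjusted p under 0.05, where 17.3%, 2.44% and 4.53% of all genes were.

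Over all 6 pairs, 1 of the 39 genes passed the common test, Noc3l, the mouse relative of another yeast factor of large-subunit transport, where 5.16% of all genes were called higher. Noc3l read 104 on the TAC 1 day array and 54.7 on its sham, and its remaining pairs read 92.9 against 67.2 at TAC 1 week, 78.2 against 73.2 at TAC 1 month, 74.8 against 52.4 at MI 1 week, 69.8 against 56.6 at MI 1 month and 46 against 25.8 with Ang II. Each procedure array was brighter than its control, most clearly at TAC 1 day and with Ang II, whose control was the dimmest of the 12 arrays. The common change was 0.52 ± 0.15 (SE, limma adjusted p = 0.0479), and the call was lost when any 1 of the 6 pairs was left out (adjusted p between 0.067 and 0.116). Higher in 6 of 6 pairs were 7 of the 39 genes, where 8.67% of all genes were, namely Gnl3, Nhp2, Nop16, Nop58, Pes1, Noc3l and Npm1, and 0 were lower in all 6 (10.7% of all genes). The mean of the 5 pairs other than TAC 1 day passed for 1 gene, Gnl3, at 0.27 (limma adjusted p = 0.0449), where 5.44% of all genes passed as higher and 5.26% as lower.

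Other genes of the pathway were read from lists made by function. Of 83 further assembly factors (87 listed), 13 rose at TAC 1 day and 0 fell, with a median ratio of 0.421 and 68 ratios above 0, and 3 passed the difference from the other pairs as higher, where 2.08% of all genes did. Among them Ppan, a large-subunit factor, read 147 against 54.1 and rose by 1.44 ± 0.36 (limma adjusted p = 0.0244). Of 18 translation factors 8 rose and 1 fell, with a median of 0.407, led by Eif1a, a factor that scans for the start codon, at 1.73 ± 0.23 (440 against 132). Of 42 ribosomal proteins with a probe set of their own (76 listed) 3 rose, a share near the 6.19% of all genes that rose, and 0 fell, with a median of 0.209 and 39 ratios above 0, so the genes that encode the ribosome's own proteins had smaller ratios than the assembly factors, a difference that was not tested. The other 11 genes of RNA polymerase I and its factors had a median of 0.114, with 0 called. Of the 11, 3 were at an unadjusted p under 0.05 in limma, where 31.7% of all genes were.

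Lists beyond the ribosome differed among themselves. For scale, 6.19% of all genes rose at TAC 1 day, 10.2% fell and 31.7% had an unadjusted p under 0.05 in the limma fit. Of 20 other genes known as Myc targets 6 rose and 1 fell, with a median of 0.076, and Srm, an enzyme of polyamine synthesis, rose by 1.83 ± 0.22 (513 against 144). Of 16 genes of nucleotide synthesis 4 rose and 3 fell (median -0.008), with Ctps, which makes CTP, at 1.73 ± 0.20 (1137 against 344). Of 10 targets of p53, a factor that responds to nucleolar stress, 0 rose and 2 fell (median 0.06). Of 11 genes of the Myc network 1 rose, Myc itself, and 2 fell. Of 19 immediate early genes 7 rose and 0 fell (median 1.374), and of 16 cell cycle genes 0 were called, with 4 at an unadjusted p under 0.05 (median 0.32). Against the mean of all 6 controls these medians were 0.985 for immediate early and 0.177 for cell cycle genes. The cell cycle median was higher at TAC 1 week, 1.457, where the ribosome biogenesis median was 0.119. That cell cycle value depends on its control. The TAC 1 week sham had a cell cycle median of -0.621 against the MI sham and -0.51 against the Ang II control of that week.

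**Figure D4:**
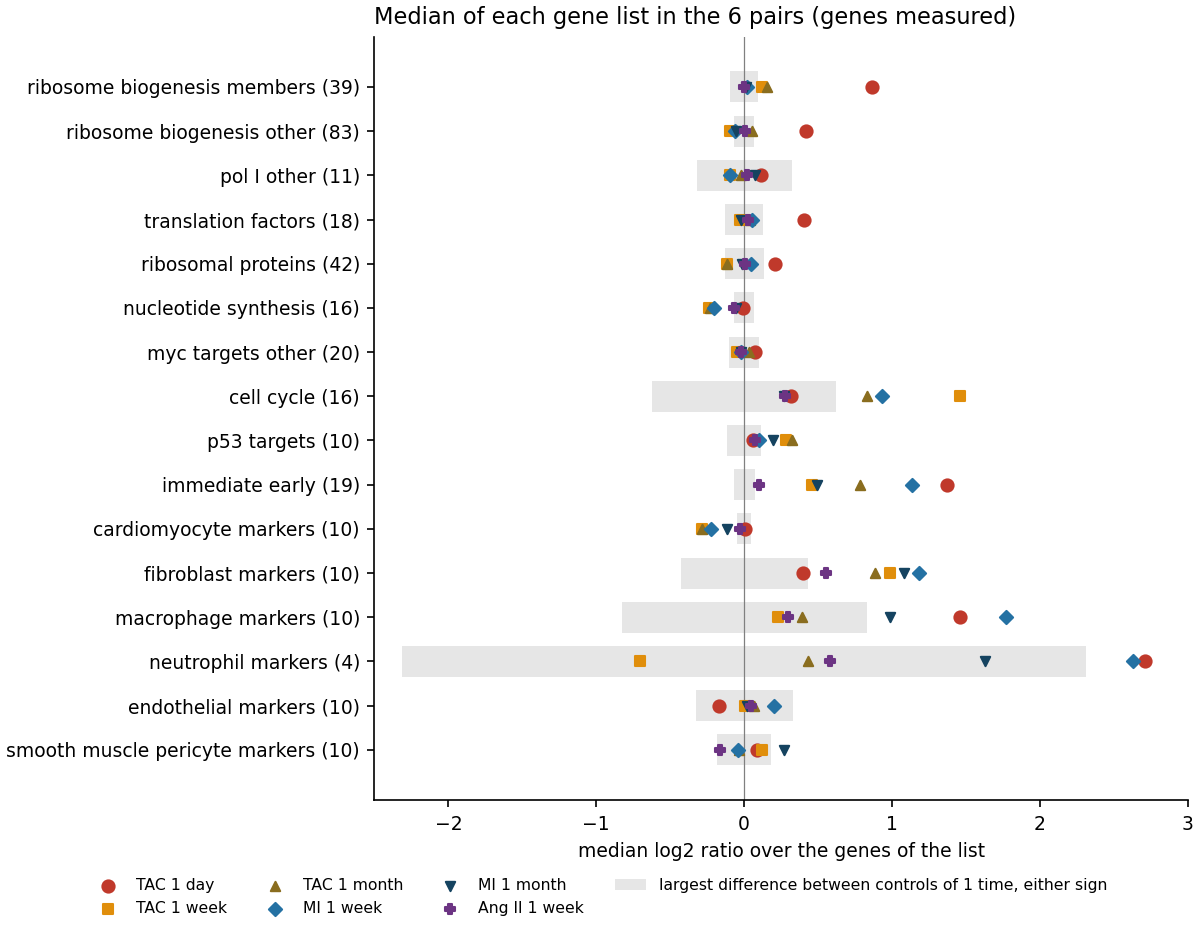
Median log2 ratio of each gene list in the 6 pairs, with the number of genes measured in brackets and a grey band that spans the largest median difference between controls of 1 time in either direction. The ribosome biogenesis genes stand at 0.863 at TAC 1 day, outside their band of 0.094, while the macrophage and neutrophil lists stand high at both TAC 1 day and MI 1 week.

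Macrophage and neutrophil markers were also higher at TAC 1 day, but not only there. The 10 macrophage markers were all higher there, with a median ratio of 1.462 and a summed signal of 6222 where the 6 controls held 2838 to 4734. At MI 1 week the 10 were all higher too, with a median of 1.768 and a sum of 12134, and there the ribosome biogenesis median was 0.022. Of 7 neutrophil markers 4 were bright enough to be tested, and all 4 were higher at TAC 1 day (median 2.71) and at MI 1 week (median 2.629). The summed signal of the 6 that were measured was 3765 at TAC 1 day and 1081 at MI 1 week, with 86.8 to 670 over the controls. Between the TAC sham and the Ang II control of 1 week, the 4 tested markers differed by a median of 2.312. In the other pairs of controls of the same time the median differences were 0.809 to 1.008. Of 10 lymphocyte markers 0 were bright enough, and the summed signal of the 8 measured at TAC 1 day, 105, lay within the 57 to 149 of the controls. The fibroblast markers had a median of 0.397 at TAC 1 day and 1.184 at MI 1 week, the cardiomyocyte markers 0.009 and -0.222, the endothelial markers -0.168 and 0.203, and the smooth muscle and pericyte markers 0.089 and -0.041. Against the mean of all 6 controls the endothelial median at TAC 1 day was 0.264, so its sign depends on the control. What infiltrating cells contribute to the TAC 1 day levels of the 39 genes was not tested.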

How the data were processed

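The authors deposited linear intensity, 1 signal per probe set on each array. GCOS is named per the submitters' processing notes. How the signal was computed and scaled was not given in the sources used here. Procedure and control arrays were paired by the series and time in their labels and titles. Signals of the 45101 probe sets were scaled to a common 2% trimmed mean, floored at the 20th percentile (4.54) and put on the log2 scale. A gene was its brightest probe set with 1 symbol, and genes above the 40th percentile (18.1) were tested. Fits used limma 3.58.1 and statmod 1.5.0 under R 4.3.3, with the pair as a block and an intensity trend, two-sided, with Benjamini-Hochberg adjustment at 0.05, and tested on simulated data. Residual degrees of freedom were 5 for the common fit, 3 by procedure and 4 for TAC 1 day, whose residual also holds real differences among the other 5 pairs. Members and lists were chosen with earlier results of these data known. All 39 genes could be named. Given in full were the 10 highest and 5 lowest at TAC 1 day, those past a threshold, the extremes of every other pair and Myc. Of the other lists, genes were named from the 3 largest ratios in size, and of the promoters the 4 highest genes with the motif. Alternatives covered scaling, floor, probe set, filter, variance model, pairing, control and each pair left out.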

Additional observations from a re-analysis of the deposited data

Results flagged for a closer look

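In 14 genes the effect at TAC 1 day differed from the mean effect of the other 5 pairs by the limma test of that difference. Myc differed by 3.84 on the log2 scale. Tsr1 differed by 1.42, Gnl3 by 1.29, Nolc1 by 1.17, Nop16 by 1.13, Grwd1 by 1.12, Nhp2 by 1.12 and Nop56 by 1.02. Mybbp1a differed by 1.00, Wdr74 by 1.00, Nop2 by 0.95, Gar1 by 0.95, Fbl by 0.85 and Ncl by 0.70. By brightest probe set, ratios were above 0 in all 3 TAC pairs and below 0 in both MI pairs for Wdr74, Ebna1bp2 and Grwd1. Their TAC minus MI differences were 0.54, 0.40 and 0.68. The share of all genes with this pattern was not counted. Some of the later TAC ratios were near 0, with Grwd1 at 0.008 at 1 week and Wdr74 at 0.039 and Ebna1bp2 at 0.047 at 1 month. At TAC 1 day the ratios were 1.11 for Grwd1, 0.967 for Wdr74 and 0.527 for Ebna1bp2. Dimmer probe sets departed from the pattern. For Grwd1, a dimmer set had MI ratios of 0.05 and 0.112, and another had -0.112 at TAC 1 day. For Ebna1bp2, a dimmer set had -0.17 at TAC 1 day and 0.098 at MI 1 month. The limma test of TAC minus MI passed for 0 of the 39 genes, with 0 at an unadjusted p under 0.05. Single controls stood apart from the other 5 for Nop2 and Noc3l. Nop2 read 116 in the MI sham of 1 month and 132 to 139 in the other controls, a small gap. Noc3l read 25.8 in the Ang II control and 52.4 to 73.2 in the other controls. For these single-control gaps alone, chance marks about 1 in 20 groups.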

How the results depend on the processing

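Each group is 1 array, so every value at a single pair is a description, and the number of arrays limits the precision. The list median at TAC 1 day stayed above 0 in every alternative run. It was 0.708 with signals as deposited, 0.715 with the mean of all probe sets and 0.688 with the second brightest, and 0.904 against all 6 controls, an alternative chosen after seeing the data. With signals as deposited the medians at TAC 1 week, TAC 1 month and MI 1 week were 0.333, 0.469 and 0.178, but the medians of all genes moved with them to 0.211, 0.312 and 0.165 (-0.229 at TAC 1 day), so that the list minus all genes stayed at 0.122, 0.156 and 0.013 (0.937 at TAC 1 day). The mean of the members at TAC 1 week was 0.043. At TAC 1 month the median was 0.083 with the mean of probe sets and 0.066 with the second brightest. Against the mean of controls of the same time the median turned to -0.012 at TAC 1 week and was 0.028 at TAC 1 month and 0.104 at MI 1 week; the cause was not tested. Nip7 turned to -1.06 at TAC 1 day with its second brightest probe set.

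Members called higher for the TAC 1 day effect (24) were 14 with signals as deposited, 15 with the second brightest probe set, 15 with no filter and 6 with no moderation. Those called for TAC 1 day minus the other pairs (13) were 2, 5, 4 and 1 under these settings, 6 with the mean of probe sets and 1 with no intensity trend, and between 3 and 17 with a pair left out. Of all genes, 1282 of 11625 were called in that difference with signals as deposited, where 684 were in the main run. The common count (1) was 4 with signals as deposited, 0 with quantile normalization, either probe-set rule, no filter, no trend or no moderation, and between 0 and 2 with a pair left out. With no replicate block (arrays unpaired) it was 0, and the TAC count was 1 in place of 0; the pairs come from titles and labels, and the TAC 1 day fit was not run without the block. At 1.5-fold in place of 2-fold, 28 members were higher at TAC 1 day, 2 lower at TAC 1 week, and 1 higher each at MI 1 week and with Ang II. With signals as deposited 6 were 2-fold higher at TAC 1 day and 0 lower at TAC 1 week, also 0 with quantile normalization. With the mean of probe sets 2 were 2-fold higher at TAC 1 week and 1 lower at TAC 1 month. With the second brightest, over 37 members, 1 was lower at TAC 1 day, 2 higher and 2 lower at TAC 1 week, 1 lower at TAC 1 month and 2 lower at MI 1 week.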
